A study of Rattus norvegicus with 49 samples.

Results

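The genes described here are 35 genes of fibroblasts and the extracellular matrix, chosen by name from the 14217 genes measured: fibrillar and basement membrane collagens, other matrix glycoproteins, small proteoglycans, the enzymes that fold, crosslink or cut the matrix, and the receptors, surface and cytoskeletal proteins of the cells that make it. All 35 were found. Each is given by the probe set that carries only its symbol and has the highest mean over all 49 arrays, on the deposited log2 scale of RMA, where a difference of 1 is a 2-fold difference in signal.

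Male Harlan Sprague Dawley rats, 6 to 8 weeks old at assignment, received propylene glycol phenyl ether (PPH), a glycol ether solvent, by gavage in corn oil for 5 days at 0, 1, 10, 100, 500 or 1000 mg/kg and were killed on the day after the last dose. Controls received 0 mg/kg. The treatment text of the labels names another compound, MCHM, while the title and the compound label of each sample name PPH; the groups are called by the latter here. Liver was measured on 25 arrays and kidney on 24, each with 5 arrays at 0 mg/kg and 4 at every other dose, apart from 3 for kidney at 500 mg/kg. Rats given 2000 mg/kg were killed moribund and gave no tissue, per the labels.

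Collagens are secreted as procollagen, folded with the help of the chaperone Serpinh1 and crosslinked outside the cell by lysyl oxidases, while gelatinases and their tissue inhibitors set how fast the matrix is turned over. In liver the main producers are stellate cells and portal fibroblasts, and in kidney they are interstitial fibroblasts, mesangial cells and pericytes, with basement membrane collagen also made by epithelium and endothelium. Transforming growth factor beta and platelet-derived growth factor are the classic signals that turn these cells towards matrix production. In whole tissue, fewer cells of a type and less RNA per cell cannot be told apart.

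The arrays showed the labelled organs. The liver arrays had albumin (Alb) at 14.51 to 14.72, where the highest kidney reached 6.84. The tubule gene Umod was at 12.53 to 13.52 on kidney arrays and at most 4.97 on those of liver. Array medians ranged from 6.47 to 6.62 in liver and from 6.62 to 6.77 in kidney, and the lowest correlation between 2 arrays of an organ was 0.987 in liver and 0.988 in kidney. As a guide to background, 21 genes not expected in either organ had a 90th percentile of 5.24 in liver and 5.02 in kidney; a group mean under that level is called not shown above background. By this guide Postn, Tgfb1 and Cnn1 were not shown above background in any group of either organ, and Thy1 in all groups but the kidney at 100 mg/kg. Mfap4 was under the level in liver at every dose except 1 mg/kg, and Lum was under it in kidney from 100 mg/kg upwards.

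In kidney at 1000 mg/kg, 3 of the 35 genes, 8.57%, passed the test against controls, all lower: the elastic fibre protein Mfap4, the basement membrane collagen Col4a1 and the collagen-binding protein Sparc. Most other matrix genes had changes of the same sign that did not pass. The test was limma's moderated test with Benjamini-Hochberg adjustment over all 14217 genes, called at an adjusted p under 0.05. Over all genes the same test called 1.55% in either direction and 1.04% as lower (148 genes, with 72 higher). Centring each array on its median turned that split to 107 lower and 138 higher while the count of members called stayed at 3. Of the 35, 32 had a negative change and the median was -0.26, beside 55.5% of all genes negative with a median of -0.017. Of 21 further probe sets in 17 members, 6 had the opposite sign to the one used, in Eln, Lox, Mmp2, Pdgfrb and Serpinh1. An unadjusted p under 0.05 was reached by 19 of the 35 and by 13.3% of all genes. These genes rise and fall together from array to array, so the counts do not stand for 35 separate observations.

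**Figure D1:**
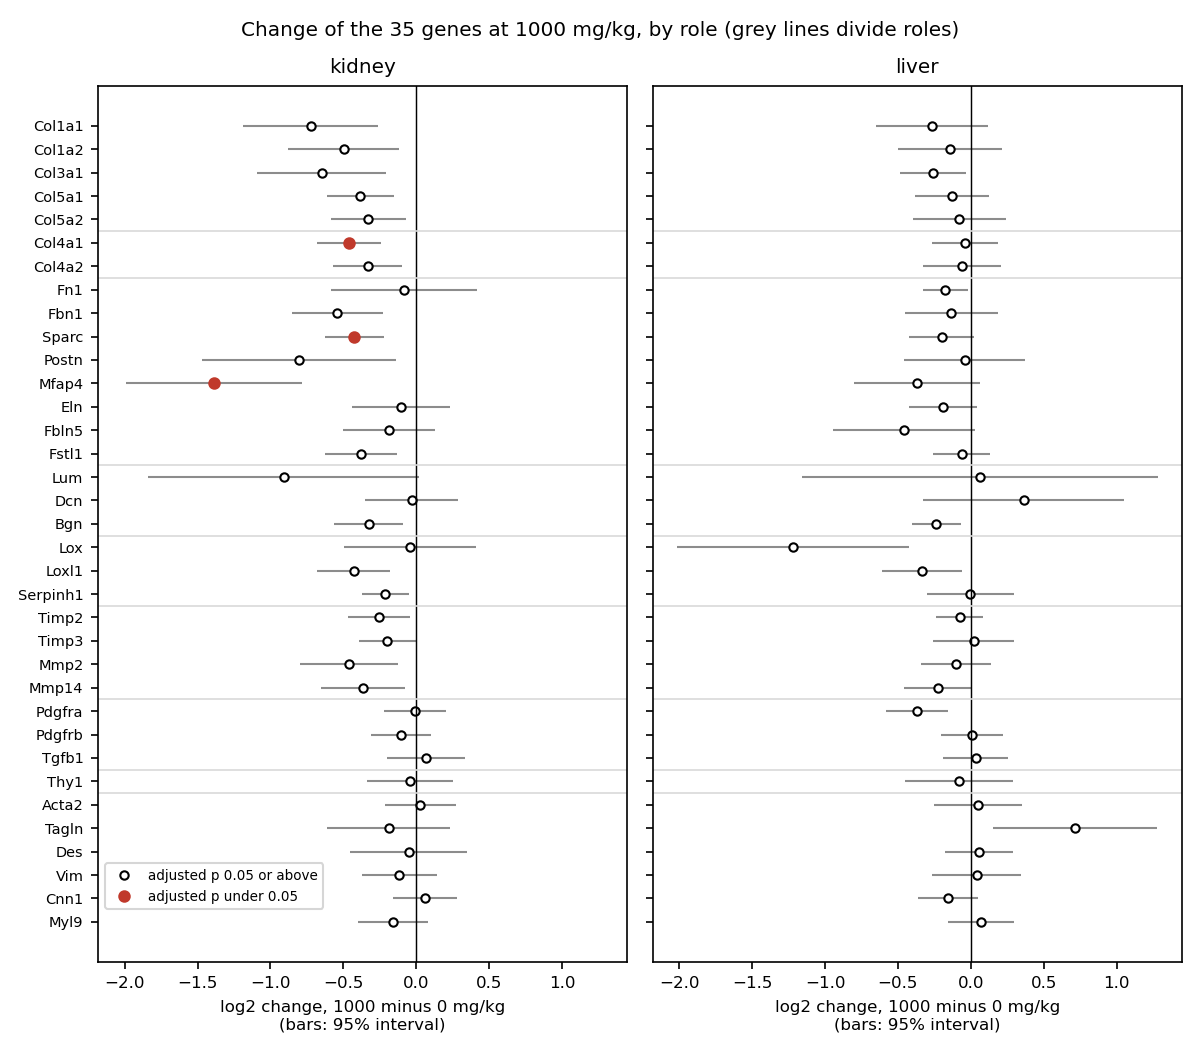
The change of each of the 35 genes at 1000 mg/kg in kidney (left) and liver (right), as the mean of log2 levels at 1000 mg/kg minus that at 0 mg/kg, with its 95% interval as a bar. Genes are ordered by role and filled points passed the test. In kidney the points from the collagens at the top to Mmp14 all lie left of 0 and those of the receptors and contractile genes lie near it; in liver most points lie closer to 0, with Lox far to the left and Tagln to the right.

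Of the collagens, Col4a1 passed the test. Col4a1, which with Col4a2 forms the commonest collagen network of basement membranes, measured 9.39, 9.19, 9.58, 9.47 and 9.09 in the 5 control kidneys and 8.73, 8.92, 8.79 and 9.10 in the 4 kidneys at 1000 mg/kg. The highest treated kidney, at 9.10, lay just above the lowest control, at 9.09, and the other 3 lay below every control. The change was -0.46 (SE 0.11, 95% interval -0.68 to -0.24; 1.38-fold lower; adjusted p = 0.0254 by limma). The group means ± SD were 9.32 ± 0.03 (n = 4) at 1 mg/kg, 9.35 ± 0.15 (n = 4) at 10 mg/kg, 9.21 ± 0.17 (n = 4) at 100 mg/kg and 9.26 ± 0.20 (n = 3) at 500 mg/kg, against 9.34 ± 0.20 (n = 5) in controls. The means from 1 to 500 mg/kg all lay within 1 control SD of the control mean. Another probe set of Col4a1 changed by -0.49 (adjusted p = 0.048 over all probe sets by limma). Leaving out any 1 of control replicates 1, 3 and 4 or of the first 3 kidneys at 1000 mg/kg lost the call, with adjusted p-values up to 0.109 and changes from -0.53 to -0.40 over the alternatives. A fit of the compared groups alone lost it too (adjusted p = 0.102 by limma).

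Col4a2 moved the same way without passing the test. It measured 8.20, 8.12, 8.23, 8.04 and 7.91 in controls and 7.73, 7.65, 7.80 and 7.90 at 1000 mg/kg, so the groups did not overlap, and its change was -0.33 (SE 0.11, adjusted p = 0.173 by limma). The 2 genes lie head to head on rat chromosome 16 and are transcribed in opposite directions from a shared promoter. The 76 bases between their RefSeq starts are shown because 1 short stretch serves both members (GRCr8, chr16:84885521-84885596, on the strand of Col4a1).

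Col4a1-Col4a2: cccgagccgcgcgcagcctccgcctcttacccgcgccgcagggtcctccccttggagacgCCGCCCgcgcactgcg

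The capitals mark GGGCGG, the core of the GC box that Sp1 family factors bind, here read on the other strand. Searched on both strands were the TATA box TATAAA, the CCAAT box, GGGCGG, the SMAD site core CAGAC and the CArG box of serum response factor, none of which overlapped another in the sequences shown. Of these only GGGCGG matched in this stretch. In the 250 bases before the start, GGGCGG was found in 30.5% of all 33469 RefSeq promoters of GRCr8 and in 10 of the 21 members with a promoter there. TATAAA stood in 12.9% of all promoters and 3 of the 21, CCAAT in 34.0% and 8, CAGAC in 42.9% and 11, and the CArG box in 1.50% and 0.

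The matrix glycoproteins held the other called genes. Sparc, a collagen-binding protein secreted by matrix-producing cells, measured 11.23, 11.28, 11.54, 11.40 and 11.05 in control kidneys and 10.91, 10.88, 10.73 and 10.99 at 1000 mg/kg. All 4 treated kidneys lay below all 5 controls, with a gap of less than 0.1 between the nearest arrays. The change was -0.42 (SE 0.10, 95% interval -0.63 to -0.22; 1.34-fold lower; adjusted p = 0.0272 by limma). At 500 mg/kg the mean was 11.12 ± 0.20 (n = 3) and the change -0.18 did not pass the test (adjusted p = 0.982 by limma). A further probe set of Sparc changed by -0.36 and did not pass (adjusted p = 0.273 by limma). Leaving out any 1 of control replicates 2, 3 and 4 or of the first 3 kidneys at 1000 mg/kg raised the adjusted p to between 0.056 and 0.128, with changes from -0.43 to -0.36. The call was also lost in a fit of the compared groups alone (adjusted p = 0.090 by limma) and with the mean of all its probe sets (0.088).

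The 250 bases before the start of Sparc are shown as the promoter of the other member called at 1000 mg/kg with a RefSeq entry (GRCr8, chr10:40038817-40039066, minus strand, printed 5′ to 3′ towards the gene).

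Sparc: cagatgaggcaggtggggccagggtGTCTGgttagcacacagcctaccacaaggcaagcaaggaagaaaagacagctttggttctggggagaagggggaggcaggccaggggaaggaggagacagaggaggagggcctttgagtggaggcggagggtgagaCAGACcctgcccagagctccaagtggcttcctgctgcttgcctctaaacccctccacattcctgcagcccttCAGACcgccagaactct

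Here the capitals mark CAGAC, which occurs on the printed strand at 89 and 17 bases before the start and on the other strand at 225 bases. The other motifs had no match in this window. A match is a description of the letters and not of binding.

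Mfap4, a microfibril-associated protein of elastic fibres, showed the widest change of the 35. It measured 5.55, 6.24, 6.46, 6.02 and 6.29 in control kidneys and 4.79, 4.64, 4.45 and 5.03 at 1000 mg/kg. Every kidney at 1000 mg/kg lay below every control. The fitted change was -1.39 (SE 0.29, 95% interval -1.99 to -0.79; adjusted p = 0.0127 by limma), but the mean at 1000 mg/kg, 4.73 ± 0.24 (n = 4), was not shown above background, so the size of the drop is not settled. Mfap4 has 1 probe set on the array. Without 1000 mg/kg replicate 3 the change was -1.30 and the adjusted p 0.071, and the other 17 alternatives kept it called.

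Mfap4 also fell along the doses. Its means ± SD were 6.11 ± 0.35 (n = 5) at 0, 5.87 ± 0.64 (n = 4) at 1, 5.67 ± 0.65 (n = 4) at 10, 5.50 ± 0.42 (n = 4) at 100 and 5.36 ± 0.42 (n = 3) at 500 mg/kg. The arrays from 1 to 500 mg/kg overlapped the controls widely, with single kidneys from 4.83 to 6.76. The trend over dose rank, from 0 for controls to 5 for 1000 mg/kg, was -0.25 per step (SE 0.05, adjusted p = 0.0047 by limma), and all 32 alternatives kept that call. The trend called 2 of the 35 members against 1.39% of all genes.

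The other member called by the trend was Fbn1, the fibrillin that forms the microfibrils on which elastin is laid down. It measured 7.14, 7.29, 7.42, 7.44 and 6.97 in control kidneys and 6.80, 6.77, 6.42 and 6.85 at 1000 mg/kg. All 4 treated kidneys were below all controls. At 500 mg/kg its 3 kidneys measured 7.25, 6.68 and 6.84, with the high value in the array that stood out for adipocyte markers. The trend was -0.11 per dose step (SE 0.03, adjusted p = 0.0326 by limma) and the change at 1000 mg/kg -0.54 (SE 0.15, adjusted p = 0.077 by limma, not called). Another probe set changed by -0.52 at 1000 mg/kg (adjusted p = 0.091 by limma). The trend call was lost in 14 of 33 alternatives, with adjusted p-values up to 0.123 by limma. Leaving out control replicate 2, 3 or 4, or 1 mg/kg replicate 1, lost it. So did leaving out 500 mg/kg replicate 2 or 3 or any 1 kidney at 1000 mg/kg. The call was also lost with quantile normalization, with arrays centred on their median, with array weights and without the arrays high in adipocyte markers.

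**Figure D2:**
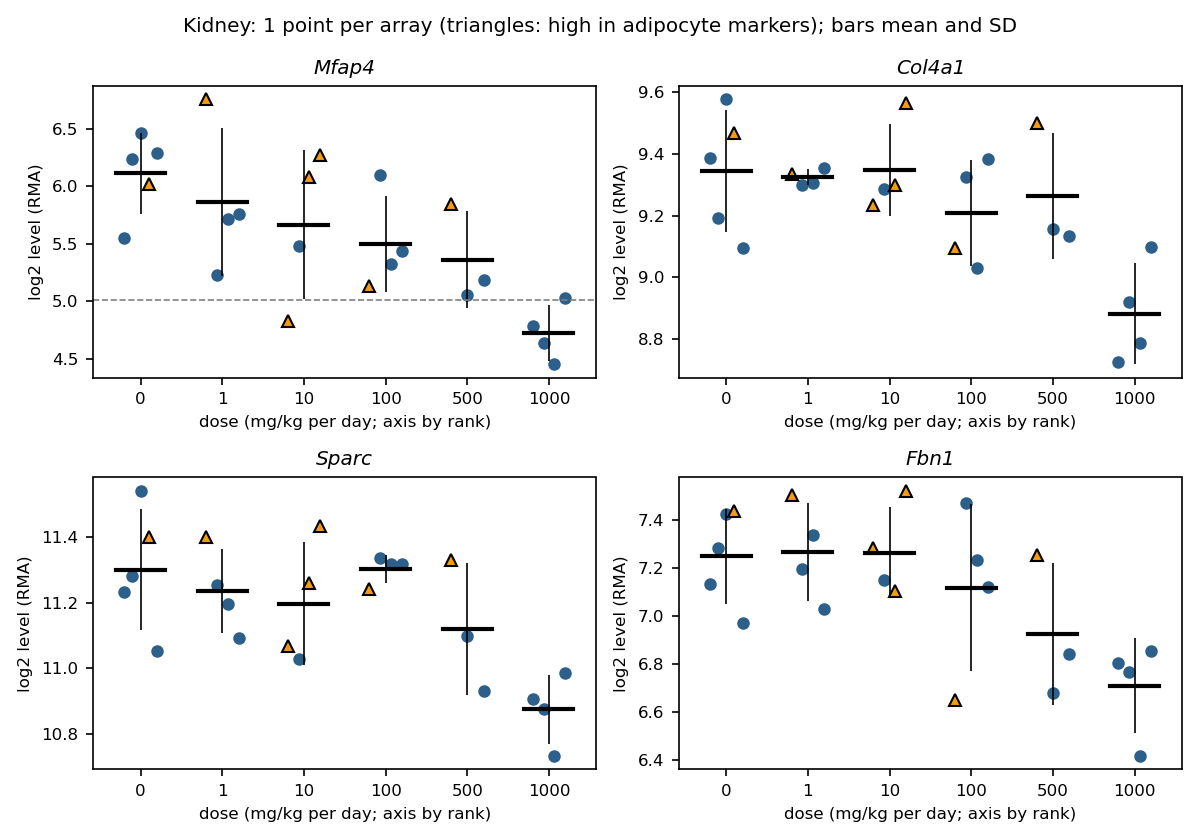
Log2 levels of Mfap4, Col4a1, Sparc and Fbn1 in each kidney array by dose, with the mean as a horizontal bar and the SD as a vertical line; doses are spaced by rank. Triangles mark the 7 arrays whose adipocyte markers averaged more than 0.5 above the controls, and the dashed line for Mfap4 is the background guide at 5.02. The 4 kidneys at 1000 mg/kg form the lowest group for each gene, and none of them is a triangle.

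Further glycoproteins of the list gave smaller or less certain changes. Fstl1, a secreted follistatin-like protein, measured 9.57, 9.84, 9.73, 9.61 and 9.39 in controls and 9.30, 9.24, 9.15 and 9.31 at 1000 mg/kg. The groups did not overlap, and the change of -0.38 did not pass (SE 0.12, adjusted p = 0.133 by limma). Its further probe sets gave -0.29 and -0.10. Postn, a matricellular protein of activated fibroblasts, had a fitted change of -0.80 at levels not shown above background. Eln, Fbln5 and Fn1, the elastic fibre proteins elastin and fibulin and the cell-binding fibronectin, had changes of -0.10, -0.19 and -0.08 with 95% intervals that spanned 0.

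None of the 5 fibrillar collagens passed the test, and all 5 had negative changes, from -0.72 to -0.33, each with an unadjusted p under 0.05. Col1a1, the major chain of type I collagen, measured 7.32, 7.85, 7.87, 7.75 and 7.64 in control kidneys and 6.84, 6.86, 6.71 and 7.45 at 1000 mg/kg. In all, 3 of the 4 treated kidneys lay below all controls and replicate 4 lay within them. The change was -0.72 (SE 0.22, 95% interval -1.19 to -0.26, adjusted p = 0.117 by limma), and another probe set gave -0.47. Col5a1, a chain of the type V collagen that starts fibrils, measured 6.90, 7.02, 7.04, 7.13 and 6.74 in controls and 6.65, 6.53, 6.44 and 6.71 at 1000 mg/kg. The groups did not overlap and the change was -0.38 (SE 0.11, adjusted p = 0.094 by limma). Of 19 alternatives 1 called it, the leaving out of control replicate 5 (adjusted p = 0.045 by limma). In the others the adjusted p reached up to 0.270. Col3a1, Col1a2 and Col5a2 changed by -0.65, -0.50 and -0.33, with adjusted p-values from 0.153 to 0.230.

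The small proteoglycans, which coat collagen fibrils, differed among themselves. Bgn had a change of -0.32 with kidneys at 1000 mg/kg, from 8.38 to 8.56, below all controls, from 8.68 to 9.00, and did not pass (adjusted p = 0.190 by limma). Dcn, its close relative, was at 9.67 ± 0.14 (n = 4) against 9.70 ± 0.18 (n = 5), a change of -0.03 with a 95% interval from -0.35 to 0.29. Lum varied too widely to place, with a change of -0.91 and an interval from -1.84 to 0.02.

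Neither of the enzymes that crosslink collagen passed the test. Loxl1 measured 9.14, 9.36, 9.42, 9.39 and 8.84 in controls and 8.66, 8.84, 8.80 and 8.90 at 1000 mg/kg. Control replicate 5, at 8.84, was the only control within the treated range. The change was -0.43 (SE 0.12, adjusted p = 0.083 by limma). Loxl1 was called in 2 of 19 alternatives: without that control (adjusted p = 0.013 by limma) and with the replicate number as a block. In the others the adjusted p reached up to 0.239. Lox itself changed by -0.04 with an interval from -0.50 to 0.41, and the chaperone Serpinh1 by -0.21 (adjusted p = 0.222 by limma), with another of its probe sets at 0.20. The gelatinase Mmp2 and the membrane protease Mmp14 changed by -0.46 and -0.37, and the inhibitors Timp2 and Timp3 by -0.26 and -0.20; none passed the test. A further probe set of Mmp14 changed by -0.40 and passed (adjusted p = 0.0364 by limma), whereas a further one of Mmp2 gave 0.03.

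The receptors, the growth factor, the surface marker and the contractile genes had changes nearer 0, and none passed. Pdgfra and Pdgfrb, the receptors for platelet-derived growth factor, changed by -0.01 and -0.10, and Tgfb1 by 0.07. The contractile and cytoskeletal genes Acta2, Tagln, Des, Vim, Cnn1 and Myl9 had changes between -0.19 and 0.06. For Acta2, the actin of smooth muscle and myofibroblasts, controls averaged 6.19 ± 0.12 (n = 5) and kidneys at 1000 mg/kg 6.22 ± 0.13 (n = 4), with a 95% interval from -0.22 to 0.27. By the brightest probe set, all 10 genes of these roles had an unadjusted p above 0.05. Of the 25 matrix proteins, enzymes and inhibitors, 19 were under it. The medians were -0.05 and -0.38, a description of role groups that were not tested against each other. Another probe set of Thy1 changed by -0.22 (unadjusted p = 0.040 by limma, not called). At 1000 mg/kg Thy1, Tgfb1 and Cnn1 of the 10, and Lum, Postn and Mfap4 of the 25, were not shown above background. Under array centring Dcn, Lox, Thy1 and Pdgfra had changes above 0, and under quantile normalization Pdgfra did, while all 5 fibrillar and both basement membrane collagens stayed negative under each scaling tried.

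In 11 of the 35 members, 31.4%, the pattern went further: they had every kidney at 1000 mg/kg below every control, where 3.09% of all genes did: Col3a1, Col4a2, Col5a1, Col5a2, Fbn1, Sparc, Bgn, Postn, Mfap4, Mmp2 and Fstl1. No member had every treated kidney above. The members' median deviation from the control mean was -0.27, -0.24, -0.39 and -0.19 in the 4 kidneys at 1000 mg/kg and between -0.18 and 0.10 in the 5 controls. Those groups met but did not overlap. Kidneys of lower doses reached the same range: -0.23 in 1 kidney at 1 mg/kg and -0.24 and -0.21 in 2 of the 3 at 500 mg/kg.

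At the lower doses no member passed the test in kidney. The comparisons at 1, 10, 100 and 500 mg/kg and of 1000 with 500 mg/kg called 0 members, and limma called 0% of all genes in each of them; members with an unadjusted p under 0.05 numbered 0, 1, 2, 1 and 5, beside 2.98%, 7.35%, 6.83%, 5.08% and 5.82% of all genes. At 500 mg/kg, 29 of 35 changes were negative with a median of -0.13. At 1 and 10 mg/kg 20 and 16 of 35 were negative. The comparisons with 0 mg/kg share the same 5 control kidneys.

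**Figure D3:**
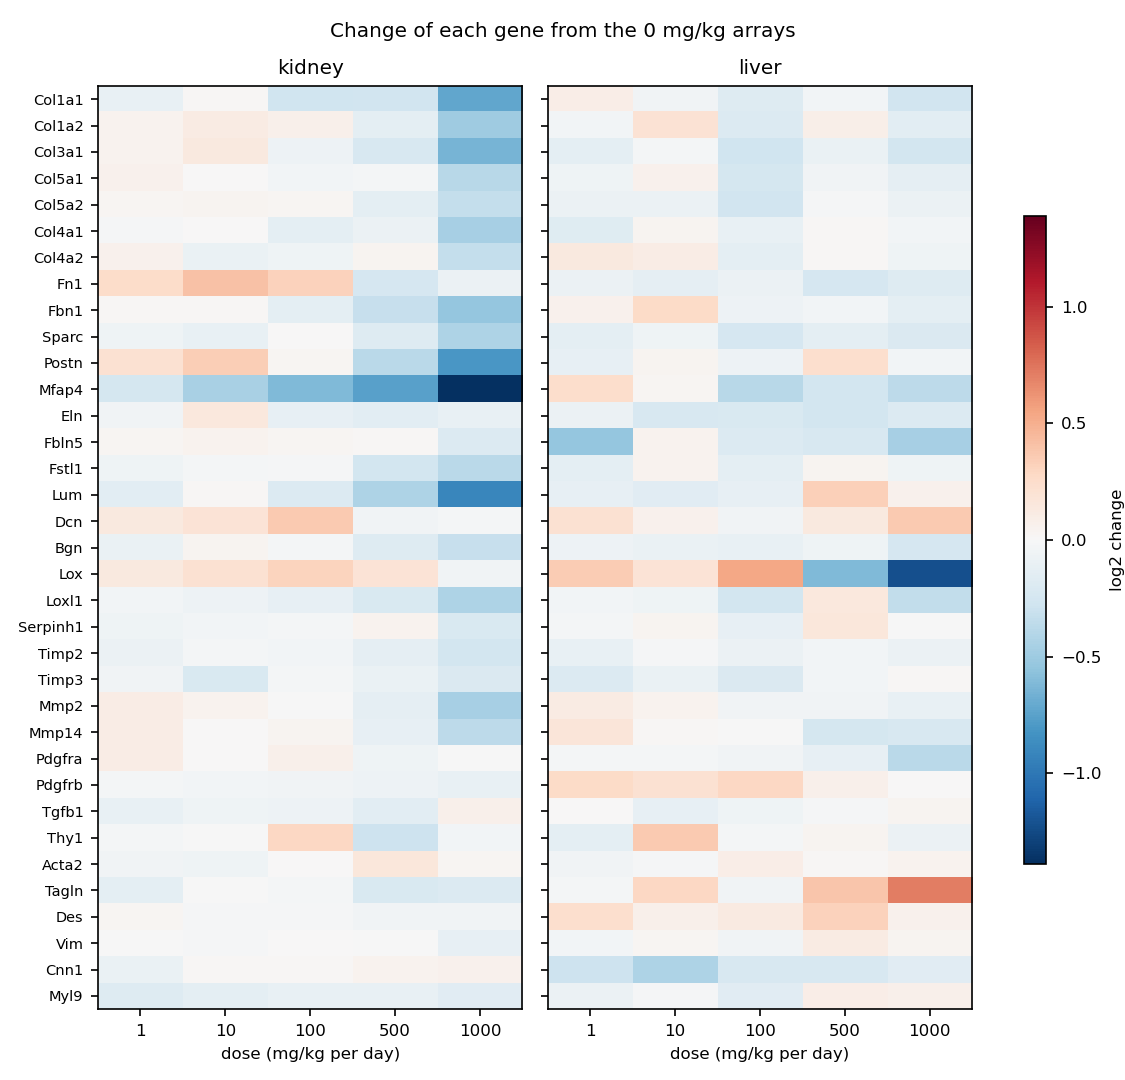
The log2 change of each gene from its organ's 0 mg/kg arrays at each dose, with blue for lower and red for higher. In kidney the collagens and most glycoproteins turn blue at 1000 mg/kg, and Mfap4 does so from the middle doses on; in liver the map stays pale except for Lox, Tagln and scattered single values.

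Fat tissue in single kidney arrays moved with many of the members and was therefore checked. Adipoq, the adipocyte hormone adiponectin, ranged from 4.76 to 7.59 over the 24 kidneys. The mean of 11 measured adipocyte markers of 12 listed stood more than 0.5 above the control mean in 7 kidneys: control replicate 4, 1 mg/kg replicate 1, 10 mg/kg replicates 1, 3 and 4, 100 mg/kg replicate 1 and 500 mg/kg replicate 1. All 4 kidneys at 1000 mg/kg were low, from -0.43 to -0.26, and 2 of the 5 controls were higher than any of those by over 0.3. The range of the marker mean was 5.20 to 6.25 in controls and 5.10 to 5.27 at 1000 mg/kg. The group means of Plin1, Lep and Adrb3 were not shown above background in any dose group. Of the 11 markers, 4 were not shown above background in controls and 6 at 1000 mg/kg. This limits the marker mean as a measure of fat tissue there. None of the 11 markers passed the test at 1000 mg/kg. Within dose groups, over 24 kidney arrays from 1 deposited table, the correlation with the marker mean was 0.75 for Lum, 0.74 for Vim, 0.73 for Postn, 0.68 for Sparc and 0.65 for Col1a1, and 0.42 for Col4a1 and Mfap4.

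With this taken into account, the 3 genes called at 1000 mg/kg kept changes of similar size, while some of their calls were lost. With the marker mean as a covariate the same number of members was called, 3, with changes of -1.28 for Mfap4 (adjusted p = 0.0184), -0.43 for Col4a1 (0.0395) and -0.37 for Sparc (0.0198), all by limma. Without the 7 arrays the changes were -1.41, -0.43 and -0.40 and only Mfap4 stayed called (adjusted p = 0.0043), with Col4a1 at 0.094 and Sparc at 0.061. The members' median change was -0.21 with the covariate and -0.22 without the arrays, beside -0.26 with neither. Of the 35, 29 and 30 were negative, beside 32. Dcn, Lox and Pdgfra turned to changes above 0 with the covariate, and Dcn and Des without the arrays. Of the arrays left out, 1 was a control and 0 were at 1000 mg/kg. The part of fat tissue in the changes was not tested.

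**Figure D4:**
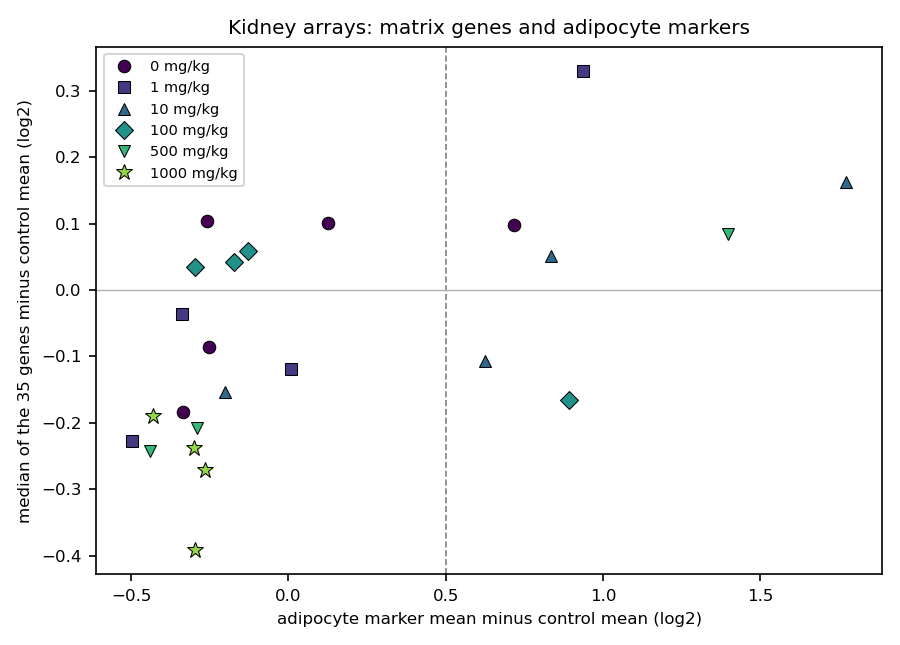
For each kidney array, the median deviation of the 35 genes from the control mean (vertical, log2) against the deviation of the adipocyte marker mean (horizontal, log2), with 1 symbol per dose and a dashed line at 0.5. The 4 arrays at 1000 mg/kg lie at the lower left, from -0.39 to -0.19 on the vertical axis, beside arrays of 0, 1 and 500 mg/kg that are similarly low in adipocyte markers.

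The members varied together in kidney beyond dose. After removal of the dose group means, the median correlation over the 595 pairs of members was 0.45 over 24 kidneys. It was 0.34 over the 17 kidneys without high adipocyte markers, and 0.26 over 25 livers. No such value over other genes is given, so this is not shown to be particular to the members. The closest kidney pairs were Fbn1 with Col5a1 at 0.91 and Col3a1 with Col1a2 at 0.90. Timp3 and Acta2 stood apart, with median correlations to the other members of -0.14 and -0.00099.

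In liver no member passed the test at any dose. At 1000 mg/kg limma called 1.05% of all genes and 0 of 35 members. An unadjusted p under 0.05 was reached by 7 of the 35 and by 12.4% of all genes. In all, 25 changes were negative, with a median of -0.08 beside 0.015 for all genes. Of 21 further probe sets of the members, 5 had the opposite sign to the one used. More were negative at 100 mg/kg, 31 of 35 with a median of -0.10 beside 0.018 for all genes. There the members' median deviation from the control mean was -0.39 in replicate 4, with 32 of 35 below, and between -0.08 and 0.04 in the other 3 livers, while at 1000 mg/kg it was between -0.20 and 0.04. The trend called 0.661% of all genes and 0 members, with 9 members and 11.7% of all genes at an unadjusted p under 0.05. The comparisons at 1, 10, 100 and 500 mg/kg called 0 members and 0%, 0.00703%, 0% and 0.0492% of all genes, and 1000 against 500 mg/kg called 0 members and 0.00703%. Members with an unadjusted p under 0.05 numbered 3, 2, 4, 5 and 4 in those comparisons, beside 9.45%, 9.22%, 9.18%, 10.7% and 6.55% of all genes.

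Pdgfra, the receptor that marks stellate cells and fibroblasts in liver, came nearest. It measured 7.79, 8.08, 8.11, 8.33 and 8.19 in control livers and 7.97, 7.55, 7.87 and 7.54 at 1000 mg/kg. Among the 4 treated livers, 2 were within the control range and 2 below it. The change was -0.37 (SE 0.10, 95% interval -0.58 to -0.16, adjusted p = 0.089 by limma). Pdgfra was called in 2 of 17 alternatives, among them without control replicate 1, the lowest control (adjusted p = 0.034 by limma). In the others the adjusted p reached up to 0.316.

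Lox, lysyl oxidase, showed the widest fitted change in liver and a wide spread. It measured 7.46, 7.68, 7.36, 7.42 and 6.82 in controls, 6.35, 6.64, 6.98 and 6.99 at 500 mg/kg and 7.19, 5.44, 6.05 and 5.83 at 1000 mg/kg. Replicate 1 at 1000 mg/kg lay among the controls and the other 3 lay below them all. The change was -1.22 (SE 0.39, 95% interval -2.02 to -0.42, adjusted p = 0.147 by limma), and another probe set gave -0.90 (adjusted p = 0.228). At 1, 10 and 100 mg/kg the changes were 0.36, 0.19 and 0.54, with single livers from 6.51 to 8.57.

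Bgn varied little within its groups. It measured 8.69, 8.78, 8.70, 8.74 and 8.81 in control livers and 8.54, 8.58, 8.47 and 8.44 at 1000 mg/kg. The groups did not overlap, and the change of -0.24 (SE 0.08) had an adjusted p of 0.195 by limma. Bgn and Loxl1 were the only 2 members with every liver at 1000 mg/kg below every control, 5.71% of the 35 beside 1.73% of all genes. Tagln, an actin-binding protein of smooth muscle, went the other way, with 5.72, 6.17, 5.96, 6.49 and 6.38 in controls and 5.83, 6.85, 7.75 and 6.99 at 1000 mg/kg. Above every control lay 3 treated livers, and replicate 1 was near the bottom of the control range. Its change was 0.71 (SE 0.27, adjusted p = 0.256 by limma), 1.05 without replicate 1 (adjusted p = 0.043) and 0.41 without replicate 3 (adjusted p = 0.644), so its size rested on single livers. The other contractile genes had smaller changes at 1000 mg/kg, of 0.05 for Acta2, 0.06 for Des, 0.07 for Myl9 and -0.15 for Cnn1. Within dose groups, however, Myl9 and Tagln correlated at 0.80 over 25 livers.

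**Figure D5:**
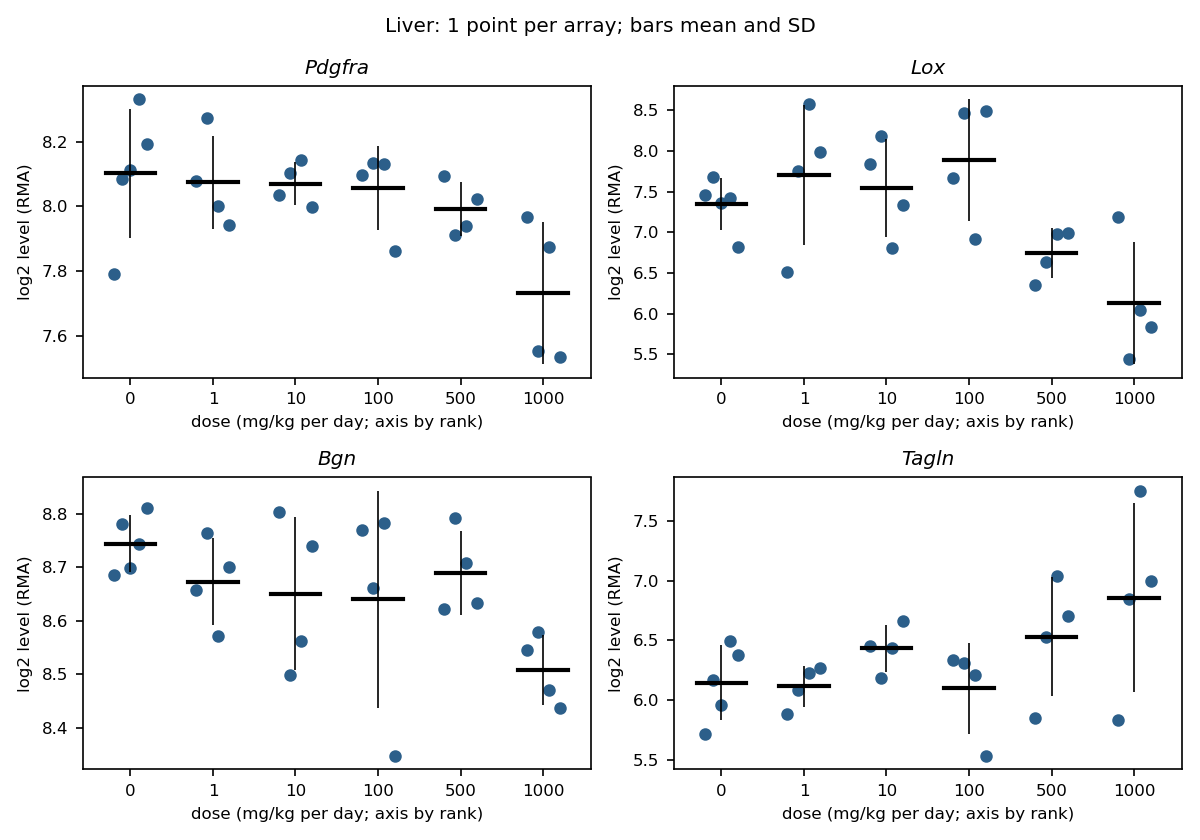
Log2 levels of Pdgfra, Lox, Bgn and Tagln in each liver array by dose, with the mean as a horizontal bar and the SD as a vertical line; doses are spaced by rank. Lox at 1000 mg/kg ranges from 5.44 to 7.19 and Tagln from 5.83 to 7.75, both with 1 array among the controls, while Bgn at 1000 mg/kg stays below all controls.

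Fibrillar collagens in liver had changes from -0.27 for Col1a1 to -0.08 for Col5a2, and Col4a1 and Col4a2 changed by -0.04 and -0.06. Fn1, which hepatocytes also secrete, was at 12.15 ± 0.12 (n = 4) against 12.33 ± 0.09 (n = 5), a change of -0.17 that did not pass (adjusted p = 0.315 by limma). The chaperone Serpinh1 stood at 8.12 in both groups.

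The change in liver minus the change in kidney at 1000 mg/kg was tested over all genes in 1 fit. This fit had no term for the rat and treated liver and kidney arrays as independent. It called 0 of 35 members and 0.626% of all genes, with 6 members and 12.3% of all genes at an unadjusted p under 0.05. The differences were 1.02 for Mfap4 (SE 0.37, adjusted p = 0.230), 0.42 for Col4a1 (SE 0.15, 0.235), 0.90 for Tagln (SE 0.35, 0.275), -1.18 for Lox (SE 0.46, 0.277), -0.36 for Pdgfra (SE 0.15, 0.297) and 0.32 for Fstl1 (SE 0.15, 0.399), all by limma. The calls in kidney and their lack in liver were therefore not shown to differ between the organs by this unpaired fit. Of the 35 differences, 27 were positive with a median of 0.22, beside 0.037 for all genes.

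Related genes, grouped in lists by function, showed few calls. Of all genes, 1.55% were called in kidney at 1000 mg/kg and 1.05% in liver. The median change of all genes was -0.017 in kidney and 0.015 in liver. Of 43 other matrix genes measured, 34 had a negative change in kidney at 1000 mg/kg, with a median of -0.16, and Emilin1, an elastic fibre glycoprotein, was called (-0.43, adjusted p = 0.0394 by limma). In liver 30 of the 43 were negative and Col14a1, a fibril-associated collagen, was called at -0.57 (adjusted p = 0.0093 by limma), from 8.57 ± 0.10 (n = 5) to 8.00 ± 0.23 (n = 4), and also by the trend. Of 24 matrix processing genes none was called in either organ, with 19 negative in kidney and 8 in liver. Of 25 genes of the TGF beta and PDGF pathways, Itga8, the integrin of mesangial cells and pericytes that binds matrix and latent TGF beta, was called in kidney, where it fell from 6.18 ± 0.11 (n = 5) to 5.77 ± 0.09 (n = 4) (change -0.41, adjusted p = 0.0077 by limma) and by the trend. Its change also differed between the organs (0.53 in liver minus kidney, adjusted p = 0.0171 by limma). Of 14 smooth muscle genes Csrp1 was called in liver at -0.39 (adjusted p = 0.0263 by limma) and none in kidney. Of 11 stellate cell and pericyte genes none was called in either organ. In each organ at 1000 mg/kg, 5 of these 14 and 5 of these 11 genes were not shown above background.

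Genes of the cell cycle were lower in the same kidneys, and few markers of other cells were called. Of 14 cell cycle genes measured, 13 were called lower in kidney at 1000 mg/kg and 2 in liver. The fitted median in kidney was -1.40, of uncertain size because 7 of the 14 were not shown above background there. Of 11 macrophage markers 10 were negative in kidney and 1, Adgre1, was called (-0.80, adjusted p = 0.0218 by limma); the marker mean ranged from 6.37 to 6.49 at 1000 mg/kg and from 6.62 to 6.76 in controls, with Cd163, Clec4f and Mrc1 not shown above background. Of 10 endothelial markers 9 were negative with a median of -0.13 and none was called. Their part in the results for the matrix genes was not tested.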

How the data were processed

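Liver and kidney RNA was measured on Affymetrix rat arrays, 1 per sample, per the labels. The deposited table holds log2 values per probe set, made by the authors with RMA per the submitters' processing notes; its version, and whether the organs were normalized together, are not given in the sources used here, so levels are compared within an organ. Of 31099 probe sets, 20826 had 1 symbol; the brightest per gene gave 14217 genes.

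The members and lists were chosen with earlier results of these data known. Groups came from the sample titles, and the labels describe biological replicates. Within an organ, limma 3.58.1 (R 4.3.3) fitted 1 mean per dose over every array, tested on simulated data first, with Benjamini-Hochberg adjustment over all genes. Array values are given for members called in any comparison and, per organ, 4 further members, taken by their p at 1000 mg/kg; called genes of related lists are named. Promoters are RefSeq's (GRCr8). Alternatives changed the probe set rule, filter, scaling, variance model, array weights, block, samples fitted and adipocyte arrays, and left out single arrays. The number of arrays limits the precision.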

Additional observations from a re-analysis of the deposited data

Results flagged for a closer look

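Of the groups of 4 or 5 arrays checked for a value far from the rest, 7 stood out among 80; chance alone marks about 1 in 20 groups. In kidney at 1 mg/kg, replicate 1 was far above the others for Col1a1, at 8.26 against 7.28 to 7.45, and for Col5a1, at 7.33 against 6.89 to 6.93; this array was among those high in adipocyte markers, and the part of fat tissue in it was not tested. In kidney at 100 mg/kg, replicate 1 was high for the adipocyte marker mean, at 0.89 above the controls against -0.30 to -0.13, and low for the median deviation of the 35 genes, at -0.17 against 0.03 to 0.06. In liver at 100 mg/kg, replicate 4 was low for Pdgfra, at 7.86 against 8.10 to 8.13, and for Tagln, at 5.53 against 6.21 to 6.34. In liver at 10 mg/kg, replicate 4 was high for the median deviation of the 35 genes, at 0.18 against -0.08 to -0.06.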

How the results depend on the processing

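No alternative reversed the direction of any of the 13 single member results, over 264 values. Of these values 226 stayed on the same side of the threshold, many of them for genes not called to begin with. A call was lost in 32 and gained in 6. The losses were 9 of 19 alternatives for Sparc, 8 of 19 for Col4a1 and 1 of 18 for Mfap4 in kidney at 1000 mg/kg. The other 14, of 33 alternatives, were for the Fbn1 trend. The number of members called in kidney at 1000 mg/kg was 3. It was 2 with the mean of all probe sets or in a fit of the compared groups alone. It was 1 without the arrays high in adipocyte markers, and leaving out 1 array gave 0 to 6. Over all genes, 72 were called higher and 148 lower there. With the mean of all probe sets these were 59 and 121, and in the fit of the compared groups 30 and 80. Without the adipocyte-rich arrays they were 31 and 78. The kidney trend called 2, but 1 with arrays centred on their median, with array weights or with the adipocyte-rich arrays left out, and 4 with a variance trend; leaving out 1 array gave 1 to 6. In liver at 1000 mg/kg 0 were called, and 1 among genes at or above the median level only. That filter gave 199 higher and 71 lower over 7109 genes, beside 105 and 44 over 14217 without it. Leaving out 1 array gave 0 to 1 members, as for the liver trend. The median changes at 1000 mg/kg moved by less than the spread between arrays. After removal of dose group means, same-numbered arrays of an organ had a median correlation of -0.004 in liver and 0.079 in kidney. Arrays of different numbers had -0.007 and -0.025. Whether the numbers pair liver with kidney was not tested. With the replicate number as a block, 4 members were called in kidney at 1000 mg/kg, Loxl1 among them (-0.53, adjusted p = 0.025 by limma). The kidney trend then called 5 members and the liver trend 1. Shares over all genes are not given for the trend alternatives or for leaving out 1 array. The member counts in those fits are therefore not read as a result about the members. Over all genes the block gave 131 higher and 230 lower in kidney at 1000 mg/kg, beside 72 and 148 without it. Low levels, and 3 to 5 arrays a group, limit what could be seen.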
